A study of Mus musculus with 4 samples.

Results

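Chaperones are proteins that help other proteins reach or regain their fold, and the unfolded protein response is the programme that raises them in the endoplasmic reticulum (ER) when folding there falls behind. A set of 40 such genes, chosen by name, was followed here in mouse male germ cells. All 40 were found in the deposited gene table, which lists 36088 genes, and all 40 passed the filter on low values that 14920 genes passed (a mean of at least 1 TPM). They comprise 23 cytosolic or nuclear genes, 2 mitochondrial genes and 15 genes of the ER. RNA sequencing was carried out on 4 libraries of wild-type (WT) germ cells, which the study sorted from fetal testes held in culture. Of these, 2 came from cultures that received the solvent DMSO and 2 from cultures that received CBR-5884, which the series describes as an inhibitor of serine metabolism and which is known to inhibit Phgdh, the first enzyme of serine synthesis. The comparison addresses what serine metabolism does while male germ cells differentiate. The titles give day 14, and the design text calls the replicates biological. Dose, length of exposure and the number of animals or testes behind each library are not stated in the labels. Because the testes were cultured with the compound before sorting, the germ cells and the surrounding somatic cells were exposed together.

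In the cytosol, Hsf1 is the transcription factor that switches on chaperone genes when unfolded protein accumulates, by binding repeated GAA and TTC units called heat shock elements. HSP70 proteins, with HSP40 and HSP110 partners, hold nascent or damaged chains, HSP90 matures kinases and receptors, and the ring-shaped chaperonin TRiC folds actin and tubulin. In the ER, the sensors Ern1 (IRE1) and Atf6, with the splicing target Xbp1, raise lectin chaperones, disulfide isomerases and the partners of Hspa5 (BiP). Male germ cells are known to carry high levels of many chaperones and several germline members of these families.

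Values are TPM, a transcript level normalised for transcript length and library size, which can be compared between genes and has the same total in every library by definition. Libraries are named by condition and by the number in the deposited table (2 or 4), and values below are given for library 2 and then library 4. The TPM summed to 997741 to 1002976 in 3 libraries and to 966761, or 3.32% below that defined total, in CBR-5884 library 4, so small differences depend on the scaling of that library. The steps between low values put the relative sequencing depth of the libraries between 1.0 and 1.26. The 8 germ cell markers summed to 2131 to 2177 TPM, with Dppa3 around 1 TPM. Of 29 markers of other testis cells, 3 were at 0 throughout, and 11, these included, had a mean under 1 TPM and were not tested. Of the tested ones, 0 differed at an unadjusted p under 0.05 (limma). The 8 markers of Sertoli-lineage cells, the main remaining somatic signal, summed to 288 and 167 TPM with DMSO and to 244 and 202 TPM with CBR-5884. In these sorted populations, fewer cells of a type and less RNA per cell cannot be told apart.

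The 40 genes were abundant and nearly level between the conditions, with no individual change past the threshold. Together they took 1.67 and 1.70% of the TPM with DMSO and 1.64 and 1.65% with CBR-5884. With limma, a linear model fitted to log2(TPM + 1) of all genes, 0 of 40 passed an adjusted p of 0.05 (0.0% of all genes tested did), and the adjusted p of the 40 lay between 0.998 and 1.0. At an unadjusted p under 0.05 there was 1 member, Manf, which was lower, against 3.66% of all genes (2.15% lower and 1.51% higher). The fold change was below 0 for 33 of 40 members, against 52.8% of all genes tested. Members were more abundant than all genes (median 254 against 21.4 TPM), and among genes with a mean of at least 5 TPM the share was 54.7%. No share was computed for genes at the members' own level. The median log2 fold change was −0.07, beside −0.01 over all genes, and members ranged from −0.46 to 0.23. With each library left out in turn, 28 to 33 of 40 were below 0. With all libraries scaled to the same total the count was 28 of 40 against 45.9% of all genes, and the median was −0.04.

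**Figure D1:**
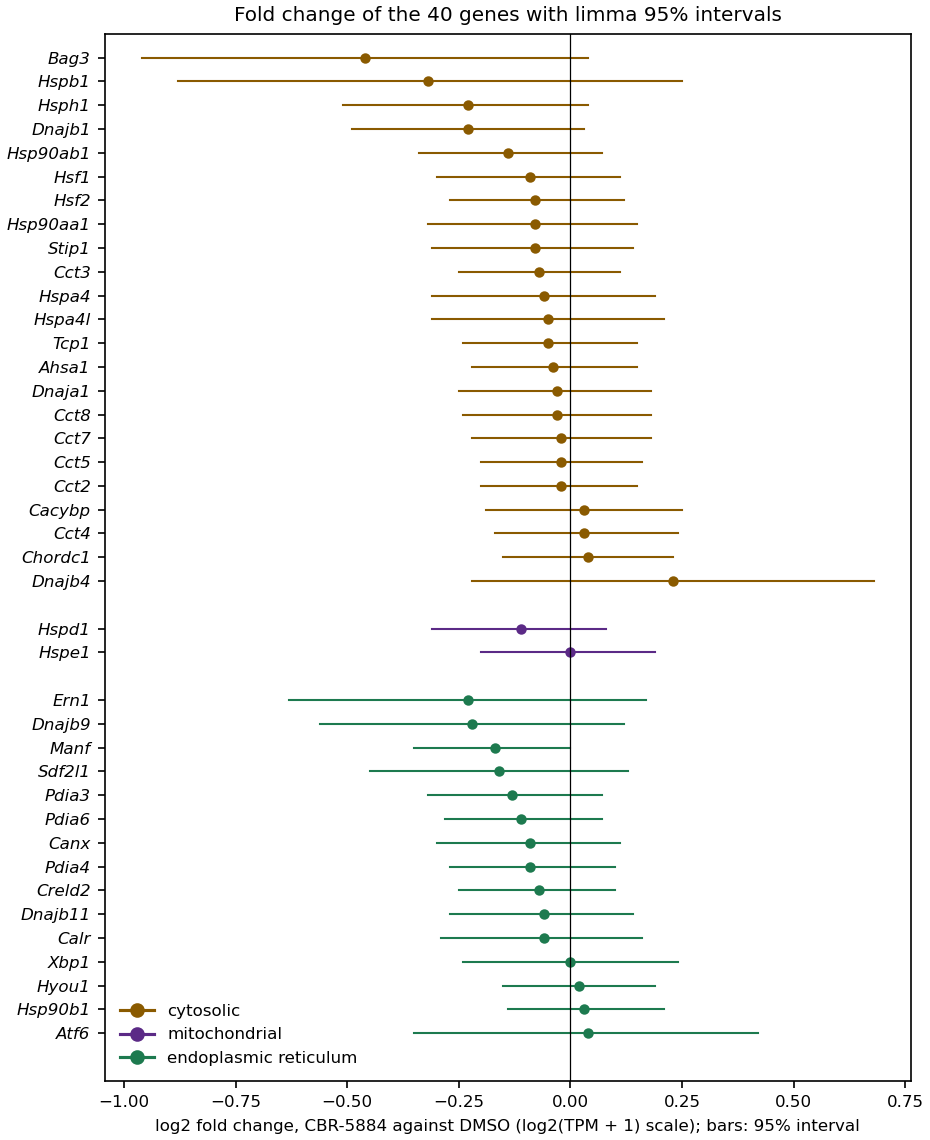
Each point is a member's log2 fold change, CBR-5884 against DMSO, on the log2(TPM + 1) scale (x axis), with its limma 95% interval as a bar; genes are sorted within the cytosolic, mitochondrial and ER groups. Most points lie slightly left of 0, and the interval includes 0 for 39 of the 40 genes.

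The 2 conditions did not overlap, with both CBR-5884 libraries below both DMSO libraries, for 15 members, where 17.7% of all genes tested did so. In the other direction there were 2 members, Chordc1 and Hsp90b1, against 13.6% of all genes. After scaling to equal totals the lower count was 7 (Hsf1, Hsf2, Hsp90ab1, Dnajb1, Bag3, Pdia6 and Manf) against 13.6% of all genes, and the higher count stayed at 2 against 17.0%. For 9 of 40 members the fold change was larger than the gap between replicates in either condition, as it was for 19.9% of all genes. The precision was high for genes of this abundance. On the log2 scale the 95% interval typically reached 0.20 to either side of the estimate (median), against 0.37 over all genes, and 34 of 40 intervals lay within 0.5 log2 units of 0 on either side.

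**Figure D2:**
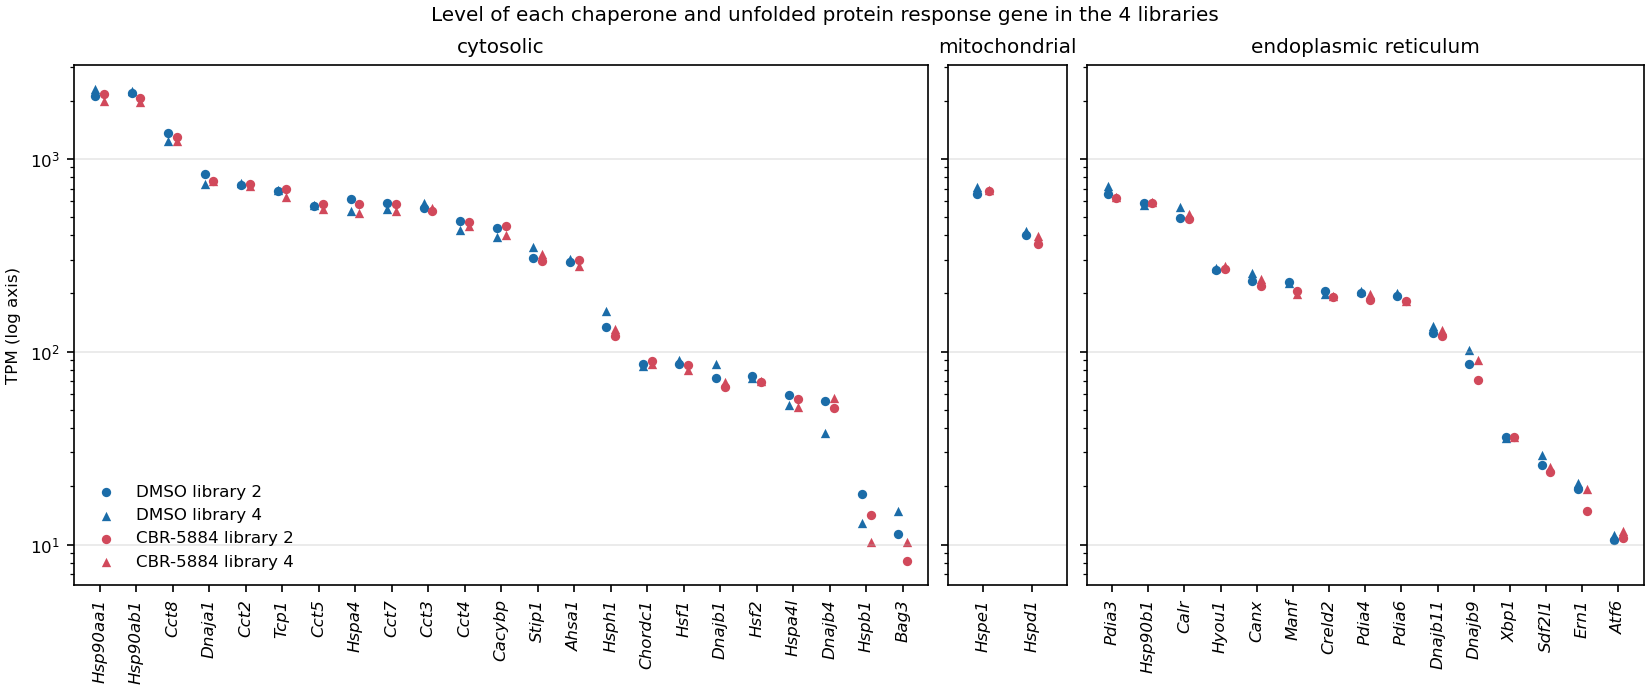
TPM on a log axis (y axis) of each gene (x axis) in the 4 libraries; circles are libraries numbered 2, triangles libraries numbered 4, blue is DMSO and red is CBR-5884. Levels run from about 11 TPM for Atf6 and Bag3 to a mean of 2139.5 TPM for Hsp90aa1, and the 4 points of a gene lie close together.

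The heat shock transcription factors differed little. Hsf1, the main activator of the cytosolic response, had 85.9 and 90.6 TPM with DMSO and 84.8 and 80.4 TPM with CBR-5884. Hsf2, a relative with known roles in the testis, had 75.1 and 73.3 TPM against 69.9 and 70.8 TPM. Both were lower in each CBR-5884 library than in each DMSO library, by small amounts. The log2 fold change was −0.09 (95% interval −0.30 to 0.11) for Hsf1 and −0.08 (−0.27 to 0.12) for Hsf2. Hsf5, a germline relative, was lower in level, with 3.2 and 2.64 TPM with DMSO and 3.88 and 3.91 TPM with CBR-5884.

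The 2 cytosolic HSP90 genes had the highest levels of any single members. Hsp90aa1, the stress-inducible cytosolic form, had 2103 and 2299 TPM with DMSO and 2163 and 1993 TPM with CBR-5884. Hsp90ab1, the constitutive form, had 2176 and 2242 TPM against 2049.7 and 1960.2 TPM. The groups overlapped for Hsp90aa1 and not for Hsp90ab1, whose log2 fold change was −0.14 (95% interval −0.34 to 0.07). The genes ranked 21 and 23 among all genes by mean TPM, and their ratio (Hsp90ab1 over Hsp90aa1) stayed between 0.948 and 1.03 in the 4 libraries. Of the 31-base words in Hsp90aa1 transcripts, 54.0% also occur in other annotated genes, mostly the pseudogene Gm12346. Adding Gm12346 gave 2132, 2303, 2183 and 1997 TPM, the same order of libraries as for Hsp90aa1 alone.

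Cochaperones of HSP90 were lower in level and flat. Ahsa1, which stimulates the HSP90 ATPase, had 290.2 and 301 TPM with DMSO and 298 and 278 TPM with CBR-5884. Stip1 (HOP), which links HSP70 to HSP90, had 306 and 347 TPM against 295 and 320.5 TPM. Cacybp, a binding partner of Siah1 and a CS-domain protein, had 435 and 393 TPM against 445 and 402 TPM. In each of these the groups overlapped. Chordc1 (morgana), an HSP90-binding protein, was the member of this list with both CBR-5884 libraries above both DMSO libraries, at 86.5 and 84.2 TPM with DMSO and 89.1 and 86.7 TPM with CBR-5884. Its log2 fold change was 0.04, with an interval of −0.15 to 0.23, and that of Cacybp, whose groups overlapped, was 0.03.

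Of the 8 genes that work with HSP70 (HSP110, small HSP and HSP40 genes, and Bag3), 7 had a fold change below 0. None passed the threshold. Bag3, a nucleotide exchange factor that links HSP70 to small HSPs and autophagy, had 11.3 and 15 TPM with DMSO and 8.21 and 10.3 TPM with CBR-5884. Hsph1 (HSP110), an exchange factor and disaggregase, had 134 and 163 TPM against 121 and 130.3 TPM. Dnajb1 (HSP40), which loads substrates onto HSP70, had 72.7 and 85.9 TPM against 65.2 and 69.5 TPM. For all 3 genes both CBR-5884 libraries lay below both DMSO libraries, and DMSO library 4 was the highest of the 4. The log2 fold changes were −0.46 (95% interval −0.96 to 0.04) for Bag3, −0.23 (−0.51 to 0.04) for Hsph1 and −0.23 (−0.49 to 0.03) for Dnajb1. Their size rests on the DMSO libraries: without DMSO library 4 they were −0.27, −0.09 and −0.11, and without DMSO library 2 they were −0.65, −0.38 and −0.35. Without CBR-5884 library 2 the value of Bag3 was −0.31. For Hsph1 and Dnajb1 the gap between the DMSO libraries (0.28 and 0.24) was as large as the difference between conditions. After scaling to equal totals, the conditions overlapped for Hsph1 and still did not for Bag3 and Dnajb1. With scaled reads in place of TPM, Bag3 and Dnajb1 were among 515 of 14920 genes with an unadjusted p under 0.05 (limma).

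Hspb1 (HSP25), a small HSP, sorted by library number rather than by condition. It had 18.2 and 12.9 TPM with DMSO and 14.3 and 10.3 TPM with CBR-5884, and the groups overlapped. Its log2 fold change was −0.32 (interval −0.88 to 0.25), and it was −0.09 without DMSO library 2, −0.10 without CBR-5884 library 4, −0.55 without DMSO library 4 and −0.54 with CBR-5884 library 2 left out. Of its 31-base words, 52.3% also occur in the pseudogene Hsp25-ps1, and the sum of both was 23.2 and 12.9 TPM with DMSO and 20.4 and 10.7 TPM with CBR-5884. Dnajb4, another HSP40, was the member with the highest fold change (log2 0.23, interval −0.22 to 0.68), at 55.7 and 37.9 TPM against 50.8 and 57.7 TPM. That value rests on DMSO library 4: without it the log2 fold change was −0.04. The Sertoli-lineage markers were lowest in that library as well, and their part in the value was not tested.

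The other HSP70 partners were more abundant and closer between the conditions. Hspa4, a ubiquitous HSP110 protein, had 617 and 536 TPM with DMSO and 584 and 522 TPM with CBR-5884. Its relative Hspa4l, known for a role in the male germ line, had 59.7 and 52.8 TPM against 57.0 and 51.4 TPM. Both were higher in the libraries numbered 2 in each condition, and their ratio stayed between 10.1 and 10.3. Dnaja1, a type I HSP40 needed in spermatogenesis, had 837 and 735 TPM against 764 and 767 TPM. Of its words 19.6% occur in other genes, chiefly the pseudogene Gm15542, and the sum with Gm15542 was 999.9, 911, 958 and 918 TPM.

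**Figure D3:**
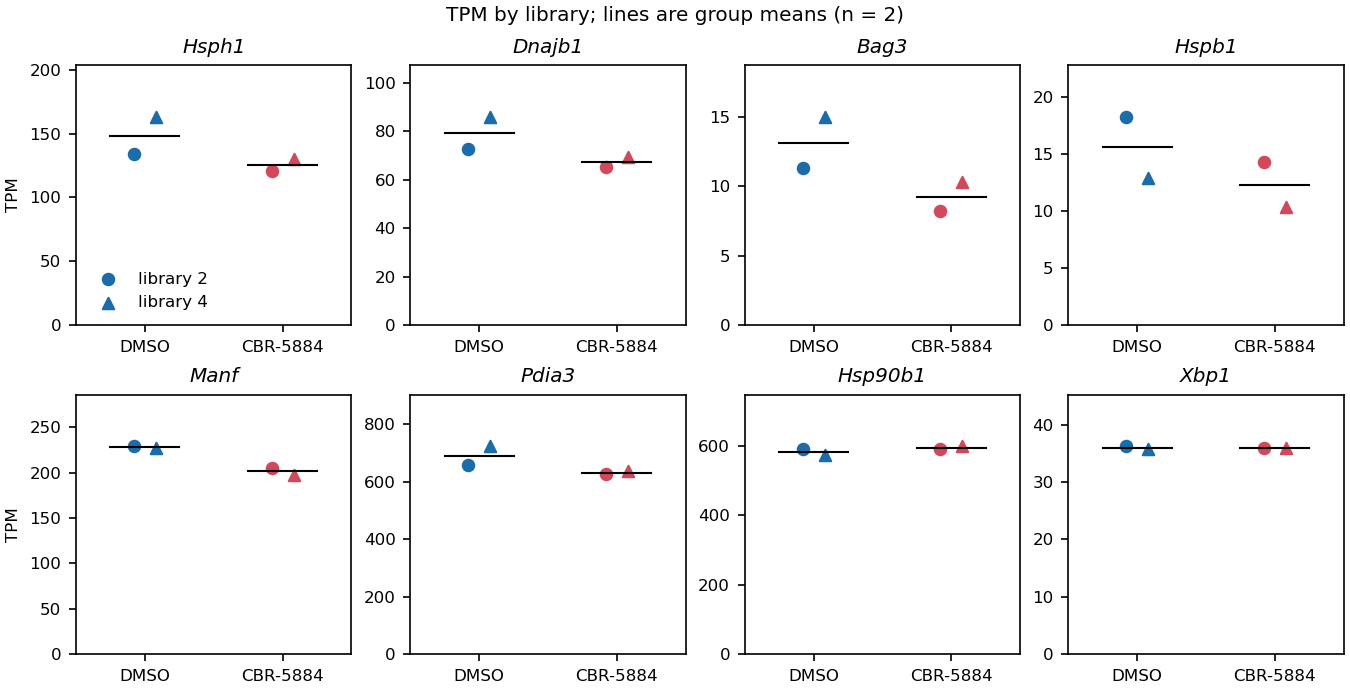
TPM (y axis, from 0) in each library of 8 members, with DMSO in blue, CBR-5884 in red, circles for libraries numbered 2, triangles for libraries numbered 4 and lines at the group means (n = 2). Bag3, Hsph1, Dnajb1, Manf and Pdia3 show both CBR-5884 points below both DMSO points, Hspb1 overlaps, and Hsp90b1 and Xbp1 are level.

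The chaperonin TRiC is a double ring of 8 different subunits, so its genes are needed in equal numbers of protein. The 7 subunit genes in the set lay within a narrow band: apart from Cct8, all were between 425 and 748 TPM in every library. Cct8 was the highest, at 1353 and 1238 TPM with DMSO and 1296 and 1233 TPM with CBR-5884, and the highest subunit exceeded the lowest by 2.75 to 2.91 times. None of the 7 reached an unadjusted p under 0.05 (limma), and their log2 fold changes ran from −0.07 to 0.03. The widest interval half-width among them was 0.21. Tcp1, the founding subunit, had 680 and 688 TPM against 695 and 633 TPM, and Cct2 had 732 and 748 TPM against 739 and 717 TPM. Cct5 had 566 and 575 TPM against 579.7 and 549 TPM, and Cct7 had 589 and 547 TPM against 580.5 and 538 TPM. These 4 overlapped between the conditions, as did Cct4, with 473 and 425 TPM against 469 and 449 TPM, and Cct8. Cct3 was the subunit without overlap, at 555 and 588 TPM with DMSO and 537 and 554 TPM with CBR-5884, a gap of about 1 TPM between the nearest libraries. The remaining ubiquitous subunit, Cct6a, is not in the set and had 757 and 777 TPM against 698 and 621 TPM (log2 fold change −0.22, interval −0.43 to −0.01; limma adjusted p = 0.998). The 7 members summed to 4948 and 4809.5 TPM with DMSO and to 4895 and 4672 TPM with CBR-5884.

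In mitochondria, Hspd1 (HSP60) and its lid Hspe1 (HSP10) fold imported proteins. Hspd1 had 399.6 and 422 TPM with DMSO and 362 and 397 TPM with CBR-5884, a log2 fold change of −0.11 (95% interval −0.31 to 0.08). Hspe1 had 654 and 716 TPM against 678 and 689 TPM, with an interval of −0.20 to 0.19. The conditions did not overlap for Hspd1, by about 3 TPM, and did after scaling to equal totals; they overlapped for Hspe1. The ratio of Hspe1 to Hspd1 was 1.64 and 1.70 with DMSO and 1.87 and 1.73 with CBR-5884. Near 50% of the words of each gene also occur in other genes (50.1% for Hspd1 and 48.1% for Hspe1), mostly pseudogenes, so the split of reads between them and their copies is uncertain. The main copy of Hspd1, Hspd1-ps3, was listed at 0.357 TPM or less.

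Hspd1 and Hspe1 lie back to back on chromosome 1, Hspd1 on the minus strand and Hspe1 on the plus strand, and share a promoter. Promoter sequences from RefSeq on GRCm38.p6 (the assembly also called mm10; 250 bases before to 50 after a start) were found for 33 of the 40 genes and searched on both strands. The 7 without an entry were Hsf1, Hsp90aa1, Hsp90ab1, Cct4, Atf6, Hyou1 and Manf. A heat shock element was taken as 3 alternating GAA and TTC units set 2 bases apart, beginning with either unit. It was found in 5 of 41 member promoters (12.2%), those of Hspd1, Hspe1, Hsph1 and Chordc1, and in 0.603% of all 32851 promoters. The 2 Hsph1 promoters overlap and hold the same site, which lies after the start in both (at 15 to 27 and 36 to 48). The Chordc1 matches run from −4 to 18 around the start. The Hspd1 element lies before the start of its matching promoter, at −144 to −127. The other Hspd1 promoter entry starts further upstream and holds no match, so the element lies after that start. The elements are given in capitals, 5′ to 3′ on the gene's strand, because these 4 genes carry the strict motif yet have fold changes on both sides of 0. They are at chr1:55088053-55088082 (minus strand) for Hspd1, chr5:149636279-149636308 (minus strand) for Hsph1 and chr9:18292260-18292289 (plus strand) for Chordc1. The Hspe1 match is the same element, at 55088059 to 55088076.
Hspd1: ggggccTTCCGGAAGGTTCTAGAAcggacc
Hsph1: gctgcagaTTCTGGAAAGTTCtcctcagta
Chordc1: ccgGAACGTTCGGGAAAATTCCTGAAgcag

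The 4 genes with this element had log2 fold changes from −0.23 (Hsph1) to 0.04 (Chordc1), with a median of −0.06, and the 29 without it had the same median. The looser form with 2 units (GAANNTTC or TTCNNGAA, contained in the strict form) was in 26.8% of member promoters and 15.1% of all promoters. It was found for 10 members, including Bag3, Hspb1, Dnaja1 and Dnajb4, whose fold changes span the whole range of the set (−0.46 to 0.23). No match in these windows says only that the letters are not there.

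In the ER, the sensors and the transcription factor were low in level. Xbp1 and Atf6 were close between the conditions, and Ern1 had the most negative fold change of the 15 ER members, not past the threshold. Xbp1, whose mRNA Ern1 splices into its active form, had 36.2 and 35.7 TPM with DMSO and 35.9 and 36.0 TPM with CBR-5884. The 4 values lay within 1 TPM, and the 95% interval of the log2 fold change was −0.24 to 0.24. Gene-level values do not separate the spliced from the unspliced form. Atf6, which is cut in the Golgi to release a transcription factor, had 10.6 and 11.2 TPM against 10.8 and 11.7 TPM. Ern1 had 19.4 and 20.9 TPM against 14.9 and 19.3 TPM, a log2 fold change of −0.23 (interval −0.63 to 0.17). It was −0.06 without CBR-5884 library 2 and −0.41 without CBR-5884 library 4. Its conditions did not overlap as deposited, but CBR-5884 library 4 was nearly at the DMSO level and the groups overlapped after scaling to equal totals.

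Lumenal chaperones were abundant and differed by little. Hsp90b1 (GRP94), the ER form of HSP90, had 592 and 574 TPM with DMSO and 592 and 599 TPM with CBR-5884, a log2 fold change of 0.03 (interval −0.14 to 0.21). Hyou1 (GRP170), an exchange factor for BiP, had 264 and 272 TPM against 268 and 277 TPM. Neither moved beyond the spread between replicates, and BiP itself (Hspa5) had 494 and 518 TPM against 496 and 544 TPM. Calr, the soluble lectin chaperone, had 491 and 559 TPM against 485 and 518 TPM. Canx, its membrane-bound relative, had 233 and 256 TPM against 219.9 and 239 TPM. Both were higher in library 4 than in library 2 of each condition, and the groups overlapped.

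The J-domain partners of BiP were also higher in library 4 of each condition. Dnajb9 (ERdj4), a target of spliced Xbp1, had 86 and 102 TPM with DMSO and 71.3 and 90.1 TPM with CBR-5884 (log2 fold change −0.22, interval −0.56 to 0.12). It was −0.06 without CBR-5884 library 2, −0.10 without DMSO library 4, −0.34 without DMSO library 2 and −0.39 with CBR-5884 library 4 left out. Dnajb11 (ERdj3) had 125 and 135 TPM against 120 and 129 TPM. Sdf2l1, which forms a complex with Dnajb11, had 25.9 and 29.0 TPM against 23.8 and 25.1 TPM. The groups overlapped for Dnajb9 and Dnajb11; for Sdf2l1 they did not as deposited and did after scaling to equal totals. In all, 11 of 15 ER members were higher in DMSO library 4 than in DMSO library 2, and 13 of 15 were higher in CBR-5884 library 4 than in CBR-5884 library 2. For the cytosolic genes these counts were 12 and 8 of 23. Sertoli-lineage markers, by contrast, were lower in library 4 of each condition when summed; their part in the ER values was not tested.

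Disulfide isomerases form and reshuffle the disulfide bonds of secreted proteins, and all 3 in the set were slightly lower with CBR-5884. Pdia3 (ERp57), the partner of Calr and Canx, had 658 and 723 TPM with DMSO and 627 and 636 TPM with CBR-5884. Pdia6 had 193 and 201 TPM against 183 and 182 TPM, and Pdia4 (ERp72) had 201 and 206 TPM against 186 and 198 TPM. The conditions did not overlap in any of the 3 as deposited, with CBR-5884 lower, as for 17.7% of all genes tested. With equal totals this held for Pdia6 alone, against 13.6% of all genes. The log2 fold changes were −0.13 (interval −0.32 to 0.07) for Pdia3, −0.11 (−0.28 to 0.07) for Pdia6 and −0.09 (−0.27 to 0.10) for Pdia4. P4hb, the founding isomerase of the family and not in the set, had 664 and 661 TPM against 588 and 599 TPM. Its log2 fold change was −0.16 (interval −0.33 to 0.01). Pdia5, also outside the set, had a log2 fold change of 0.05 (interval −0.22 to 0.32).

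Manf and Creld2 are small stress-induced proteins of the ER lumen, both also secreted. Manf, which binds BiP, had 229 and 227 TPM with DMSO and 205 and 198 TPM with CBR-5884. The replicates lay close together in each condition and the groups were well apart. Its log2 fold change was −0.17 (SE 0.07, a ratio of 0.89; 95% interval −0.35 to 0.00, its upper bound just below 0; limma adjusted p = 0.998). It stayed negative with every library left out, but the unadjusted p was under 0.05 in 0 of those 4 fits and not with equal totals, median-ratio scaling, scaled reads or the stricter filter. Creld2, a disulfide isomerase-like protein, had 207 and 199.6 TPM against 191 and 195 TPM (log2 fold change −0.07, interval −0.25 to 0.10).

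The ER stress response element, which Atf6 is known to bind together with NF-Y, was searched as CCAAT and CCACG set 9 bases apart, on both strands. It was found in 5 of 41 member promoters (12.2%), those of Hsp90b1, Calr, Canx, Creld2 and Pdia6, and in 0.119% of all promoters. The second form, ATTGG and CCACG set 1 base apart, was in 1 member promoter, that of Dnajb11, and in 0.0365% of all. The unfolded protein response element TGACGTGG was in 0 member promoters and 0.676% of all. The set was chosen by name to hold unfolded protein response genes, so these shares are not independent of that choice. The elements are printed in capitals with their flanks, 5′ to 3′ on the gene's strand. They occur in 6 of the 12 ER members with a promoter entry; Dnajb9, Ern1, Pdia3, Pdia4, Sdf2l1 and Xbp1 had no match to either form. The windows are chr10:86705531-86705658 (minus strand) for Hsp90b1, which holds 2 elements, chr8:84847055-84847113 (minus) for Calr and chr11:50325780-50325838 (minus) for Canx. Those of Creld2, Pdia6 and Dnajb11 are chr15:88819500-88819558, chr12:17266471-17266529 and chr16:22857843-22857872, all on the plus strand.
Hsp90b1: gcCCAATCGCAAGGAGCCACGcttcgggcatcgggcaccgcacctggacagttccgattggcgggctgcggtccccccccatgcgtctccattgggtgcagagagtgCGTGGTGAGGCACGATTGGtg
Calr: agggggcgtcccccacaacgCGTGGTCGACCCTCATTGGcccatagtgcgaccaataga
Canx: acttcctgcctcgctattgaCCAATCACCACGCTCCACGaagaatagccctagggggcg
Creld2: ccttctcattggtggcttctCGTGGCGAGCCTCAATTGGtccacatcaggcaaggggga
Pdia6: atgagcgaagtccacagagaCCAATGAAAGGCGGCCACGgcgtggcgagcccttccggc
Dnajb11: ccggcggcgATTGGCCCACGcctggctgct

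The 6 genes with either element had a median log2 fold change of −0.07 and a range of −0.11 (Pdia6) to 0.03 (Hsp90b1). The other 27 genes with a promoter entry had a median of −0.06. Canx, Calr, Creld2 and Dnajb11 had log2 fold changes of −0.09, −0.06, −0.07 and −0.06. Carriers of the element therefore had values close to one another and to the rest of the set, a description over genes that share their libraries.

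By compartment, 19 of 23 cytosolic members had a fold change below 0 (median log2 −0.05) and 12 of 15 ER members did (median −0.09), where all genes had 52.8% below 0 and a median of −0.01. For the mitochondrial pair the median was −0.06. The cytosolic median was −0.08 without CBR-5884 library 2 and rounded to 0.00 when CBR-5884 library 4 was dropped, so it rests on that library, while the ER median ran from −0.04 (CBR-5884 library 2 left out) to −0.14 (DMSO library 2 left out). Within the cytosol the TRiC subunits had a median of −0.02 and the 8 partner genes of HSP70, Bag3 included, a median of −0.14. The difference between compartments was not tested.

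**Figure D4:**
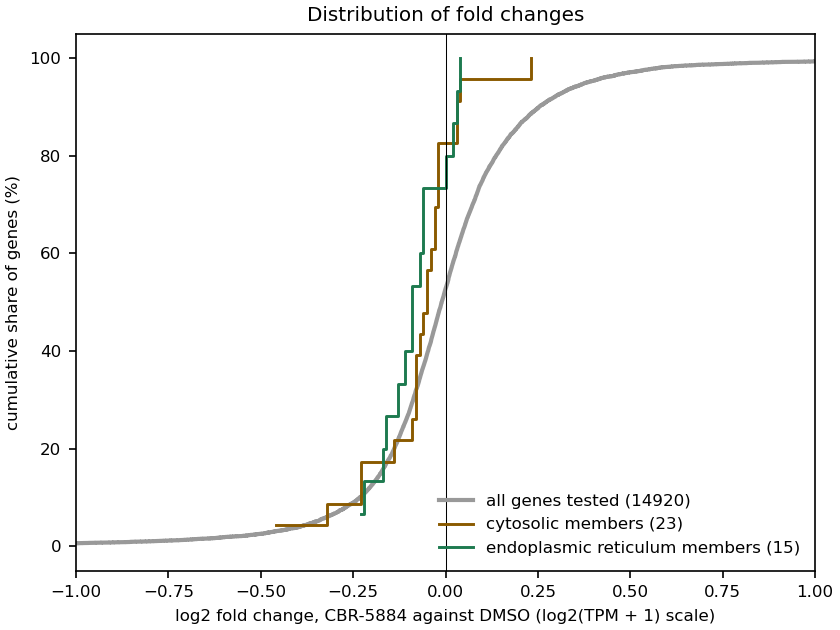
Cumulative share of genes (y axis, percent) by log2 fold change, CBR-5884 against DMSO (x axis, shown from −1 to 1), for the 23 cytosolic members, the 15 ER members and all 14920 genes tested. The member curves cross 0 near 80% and the curve of all genes near 53%. Members are more abundant than all genes (median 254 against 21.4 TPM) and more precisely measured, so the widths of the curves are not compared.

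Other genes of the same pathways were taken from lists outside the set. Of 38 other tested cytosolic genes, 3 were lower at an unadjusted p under 0.05 (limma), where 2.15% of all genes were. At an adjusted p under 0.05, 0 of the 38 passed (limma). The 3 lower genes were Cct6a and the heat-inducible HSP70 pair Hspa1a and Hspa1b. Hspa1a and Hspa1b together had 202 and 249.5 TPM with DMSO and 77.4 and 59.8 TPM with CBR-5884, so they lay far below the range of the set, at log2 fold changes of −1.82 and −1.63. The adjusted p of Hspa1b was 0.141, and 0.0272 with scaled reads in place of TPM (limma). No member of the set was near the fold changes of the pair, the lowest being Bag3. The constitutive HSP70, Hspa8, had 1189 and 1247 TPM against 1107 and 1069.7 TPM (log2 fold change −0.16, interval −0.35 to 0.03).

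Of 14 other mitochondrial chaperones and proteases, 0 had an unadjusted p under 0.05 (limma), and 11 had a fold change below 0 (median −0.06). The smallest p belonged to Dnaja3, a mitochondrial HSP40 with 109 and 102 TPM with DMSO and 94.4 and 91.7 TPM with CBR-5884. Grpel1, an exchange factor, had 29.6 and 32.6 TPM against 28.4 and 27.7 TPM, and Clpx, a protease subunit, had 76.8 and 86.6 TPM against 79.4 and 72.9 TPM. For Clpx the groups overlapped, and for the other two they did not. Of 40 other tested ER genes, 0 had an unadjusted p under 0.05 (limma), and 18 had a fold change below 0 (median 0.01), beside 12 of 15 in the set. Herpud1 and Edem1, which act in the removal of misfolded proteins from the ER, were on the higher side. Herpud1 had 26.7 and 28.2 TPM against 30.5 and 36.6 TPM (log2 fold change 0.28, interval −0.04 to 0.59), and Edem1 had 27.7 and 27.4 TPM against 31.8 and 32.3 TPM (log2 fold change 0.21, interval −0.04 to 0.47). In both, each CBR-5884 library was above each DMSO library, as in 13.6% of all genes tested. Of the 40, 4 genes had this order and 4 the reverse, which 17.7% of all genes had. Others in this list lay on both sides of 0, such as Syvn1 at 0.15 and Derl3 at −0.21. The smallest p of the list was that of P4hb, given above, which was lower (limma unadjusted p = 0.0646).

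**Figure D5:**
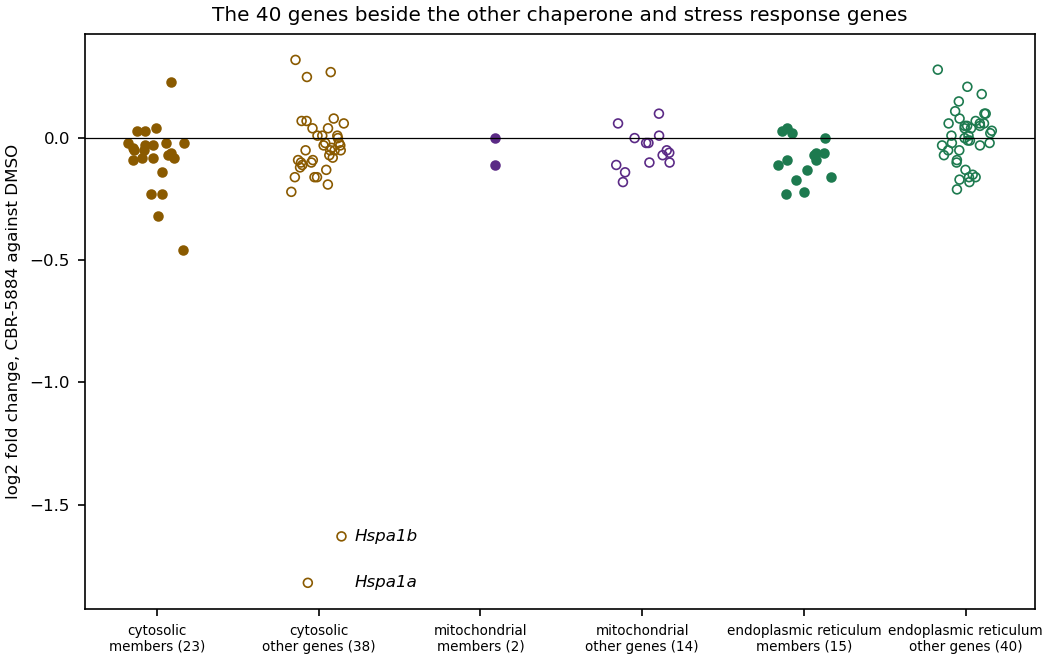
Log2 fold change, CBR-5884 against DMSO (y axis), of the members (filled) and of the other tested genes of the same compartment (open), with the number of genes in parentheses; horizontal scatter only separates points. Hspa1a and Hspa1b lie below −1.5, and every other gene shown lies between −0.46 and 0.32.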

How the data were processed

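RNA of 4 libraries (100 ng of total RNA each, TruSeq kit, per the labels' protocols) was processed with fastp and kallisto on mm10, per the submitters' processing notes; no version is recorded there. The deposited table gives signal values of 2 kinds, TPM and scaled reads per base, per the file headers. It repeats each gene's value for every transcript, of which 1 was used for each gene and library. Neither is a count, so no count test was used.

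Conditions were compared by limma-trend (limma 3.58.1, R 4.3.3), two-sided and without covariates, using log2(TPM + 1) of the 14920 genes whose mean reached 1 TPM. P-values were adjusted by Benjamini-Hochberg over all of them, with a threshold of 0.05 and 2 residual degrees of freedom. Fold changes are on the log2(TPM + 1) scale and understate those of low genes. An exact permutation test of 2 against 2 libraries cannot go below 0.33. Relative depth came from the steps between low values of genes with 1 transcript. The fit was tested on simulated data with planted changes larger than that of any member. That run therefore does not bear on differences of the members' size.

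The members and lists were chosen with earlier results of these data known. All 40 members are named; from the wider lists, genes with an unadjusted p under 0.05 and at least the 3 smallest p per compartment, with Hspa5, Hspa8 and Hsf5 added after their values were seen. A symbol with 2 gene IDs (Ddit3) was taken at the ID with the higher mean. Library names carry the numbers 2 and 4, which are not tied to the labelled replicates 1 and 2. The main fit therefore used only the condition of each library. The numbers served as names, as a replicate block in an alternative fit, and in a correlation between libraries. Where the labels name no separate animals, p-values measure the spread between these libraries. Shared 31-base words were counted in GENCODE M21 transcripts, which may differ from the index the authors used.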

Additional observations from a re-analysis of the deposited data

How the results depend on the processing

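No member was called under any of the 13 alternatives, and the count of genes called over the whole table was 0 except with scaled reads in place of TPM (1 gene) and with robust variance estimates (1 gene). The median over all members was −0.04 with equal library totals. That scaling moved the fold changes of Cct2 and Cct7 to 0.00, of Cct5 to 0.01 and of Hspe1 and Xbp1 to 0.03, and median-ratio scaling moved Hspe1 and Xbp1 to 0.01. With equal totals, the change of sign follows from raising CBR-5884 library 4 to the same total as the others. These are the 7 changes of sign, and the other 353 values of single members kept their direction under the alternatives that used all libraries.

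With each library left out in turn, the cytosolic median ran from −0.08 to 0.00, and 17 members changed sign. Their log2 fold changes ran from −0.08 to 0.01 for Ahsa1, −0.17 to 0.01 for Stip1, −0.04 to 0.11 for Cacybp, −0.16 to 0.04 for Hspa4, −0.14 to 0.03 for Hspa4l, −0.13 to 0.06 for Dnaja1 and −0.04 to 0.50 for Dnajb4. They ran from −0.11 to 0.02 for Tcp1, −0.04 to 0.11 for Cct4, −0.06 to 0.02 for Cct5, −0.08 to 0.03 for Cct7, −0.10 to 0.03 for Cct8 and −0.07 to 0.06 for Hspe1. For ER members they ran from −0.02 to 0.10 for Atf6, −0.01 to 0.01 for Xbp1, 0.00 to 0.05 for Hyou1 and −0.16 to 0.03 for Calr. A lone library left in a condition was assumed to vary like the other condition.

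Library numbers do not pair the samples by any label. Deviations from the group means correlated at 0.20 across genes between the libraries numbered 2. With the number as a replicate block, 0 genes passed, and the medians were −0.05 (cytosolic), −0.06 (mitochondrial) and −0.09 (ER). In that fit 5 members (Hsph1, Dnajb1, Bag3, Dnajb9 and Manf) had an unadjusted p under 0.05 in limma, against 1 without the block. Over all 14920 genes the count rose as well, to 797 with the block from 546 without it. TPM carry no read counts, so counting error could not be given. The unadjusted 95% interval of a member typically reached 0.20 log2 units to either side (median), so smaller differences were not told from 0. Far larger ones also missed the adjusted threshold: Hspa1b, at −1.63, had an adjusted p of 0.141 (limma).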
